A study of Mus musculus with 8 samples.

Results

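Liver RNA of mice labelled heterozygous for MLL4 was compared with that of wild-type mice after both had been fed a high fat diet (HFD), across all genes with enough reads. The comparison rests on 4 of the 8 RNA-seq libraries of the series, wild-type HFD libraries 5 and 6 and MLL4 het HFD libraries 7 and 8, chosen by the genotype and diet in their labels. All mice were of the strain given as C57 Black, were 8 weeks old when the diets started and ate them for 8 weeks. The 4 remaining libraries came from wild-type (1 and 2) and MLL4 het (3 and 4) livers on normal chow, and they are used for the spread and for the same genotype comparison on the other diet. The sex of the mice, the composition of the diet, the allele behind the het label and the number of animals in a library are not given by the labels. Nothing ties the 2 libraries of a group to separate mice, so p-values only reflect how far such libraries differ, and that spread may be technical.

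MLL4 is the histone methyltransferase encoded by Kmt2d. As background, it works in a complex with UTX (Kdm6a), NCOA6 and PTIP (Paxip1) and adds methyl groups to lysine 4 of histone H3, mainly at enhancers, where transcription factors recruit it. PPARG, a nuclear receptor that is best known from fat cells and that rises in fatty liver, is one such partner. In hepatocytes that store fat, PPARG raises genes of the lipid droplet coat and of fat uptake, and the related receptor PPARA raises genes of fatty acid oxidation. The series design sets out to find genes whose response to HFD depends on MLL4, and the genotype comparison within HFD is the one described here.

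The libraries held between 14142884 and 18928676 counts. Levels are given as CPM, counts per 1e+06 counts of a library after scaling, and a count of 3 stood at 0.161 to 0.213 CPM. The 2 libraries of a group differed by more than sampling noise, with a chi-square per degree of freedom of 14.9 for the wild-type HFD pair and 16.3 for the het HFD pair. The biological coefficient of variation, the spread between replicates beyond counting error, was 8.71% in the wild-type and 13.6% in the het HFD pair. In a principal component analysis of the 8 libraries, the component with 22.2% of the variance separated the genotypes, and in the next one, with 14.2%, het HFD library 8 stood farthest from the others. Defining hepatocyte markers were present in every library: all 14 on the list were tested, 0 were called different between genotypes on HFD (1 lower and 3 higher at an unadjusted p under 0.05, 0 with DESeq2), and their summed level was 92108 and 94098 CPM in the wild-type and 93351 and 89759 CPM in the het HFD libraries.

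Kmt2d served as the check of the label. In the row Mll2, its former symbol, wild-type HFD libraries had 63.3 and 64.7 CPM and het HFD libraries had 62.8 and 75.4 CPM. The groups overlapped, and its RNA did not fall with the MLL4 het label (log2 difference of het minus wild-type 0.11 ± 0.12, 95% interval -0.17 to 0.39, edgeR adjusted p = 0.760). The allele is not given and a count over the whole gene cannot show a change that leaves RNA in place, so these libraries are called het-labelled from here on. The related genes below were not called either. Kmt2c, the paralogous MLL3, listed as Mll3, stood at 37.7 and 41.9 CPM in wild-type and 43.8 and 49.1 CPM in het-labelled HFD libraries (adjusted p = 0.363), with both het-labelled libraries above both wild-type ones. Kdm6a stood at 15.6 and 15.3 against 16.8 and 15.8 CPM, Ncoa6 at 23.8 and 26.1 against 26.1 and 28.9 CPM and Paxip1 at 17.3 and 17.99 against 19.04 and 16.2 CPM, wild-type first. Of 17 tested genes of H3K4 methyltransferase complexes, 0 were called (edgeR, and 0 with DESeq2). At an unadjusted p under 0.05, 4 were higher (5.85% of all genes) and 0 lower. Both het-labelled libraries were over both wild-type ones in 10 of the 17 (58.82%, against 22.8% of all genes) and under them in 1. The median log2 difference was 0.11, against 0.0022 over all tested genes.

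On HFD, 56 of 12593 tested genes differed between the genotypes at an adjusted p under 0.05, which is 0.445% of them. In the het-labelled livers 44 were lower (0.349% of all tested) and 12 were higher (0.0953%). The fall was at least 2-fold for 33 of the 44, and the rise at least 2-fold for 7 of the 12. Some genes of lipid droplets and fat handling, of the cytoskeleton and matrix, of transport and of haemoglobin were among those that fell. Cyp7a1 of bile acid synthesis and a pair of glutathione transferases were among those that rose. In all 56 the 2 groups did not overlap, but without any test 24.3% of all genes had both het-labelled libraries under both wild-type ones, and 22.8% had both over. Most of the calls were near the threshold: leaving out 1 wild-type library of either diet (1, 2, 5 or 6) or het-labelled library 8 ended between 43 and 45 of the 56 calls, library 7 ended 16, and libraries 3 and 4 ended 0. No called gene changed sign under any of 17 alternatives. In every gene list below with 0 calls in edgeR, limma-voom called 0 too, and DESeq2, which called 228 genes in all, is given beside it. List counts at an unadjusted p under 0.05 are to be read against 7.93% lower and 5.85% higher among all genes.

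**Figure D1:**
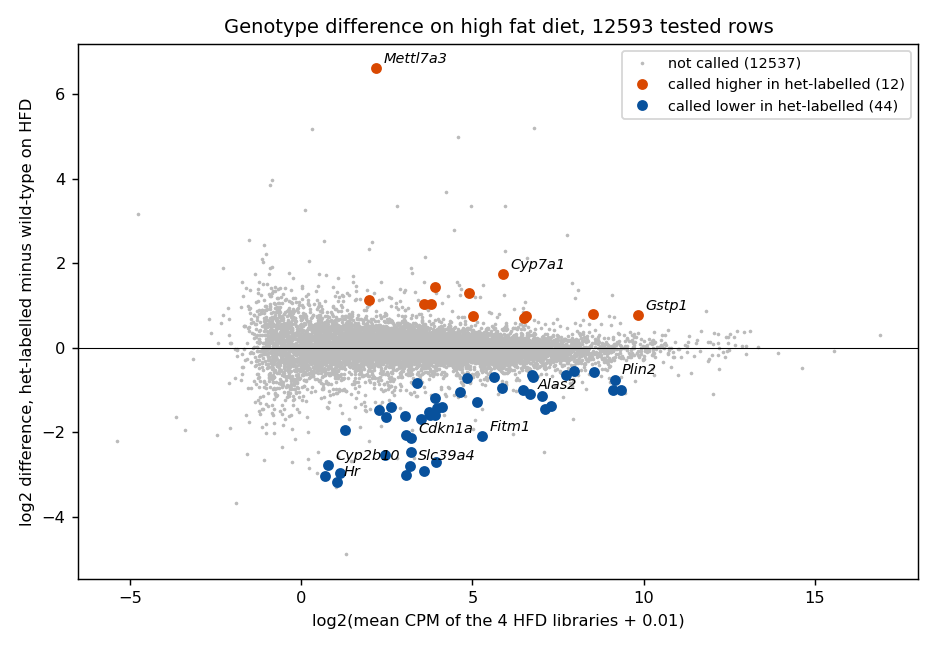
Mean level of each tested gene over the 4 HFD libraries (horizontal axis, log2 of CPM plus 0.01) against the log2 difference of het-labelled minus wild-type livers on HFD (vertical axis). Blue points are the 44 genes called lower, orange points the 12 called higher and grey points the genes not called; many grey points lie as far from 0 as the called ones.

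A set of 7 genes stayed called when each library was left out in turn and under every other alternative. Aqp4, a water channel, had 14.9 and 14.5 CPM in the wild-type and 1.77 and 1.85 CPM in the het-labelled HFD libraries, with almost no spread inside either pair (log2 difference -3.02 ± 0.19, edgeR adjusted p = 0.000564). Slc39a4, the zinc importer ZIP4, fell from 16.4 and 15.3 to 2.52 and 1.99 CPM (log2 difference -2.79 ± 0.18, adjusted p = 0.000564). Cyp2b10, a cytochrome P450 best known as a target of the xenobiotic receptor CAR, fell from 2.89 and 3.12 to 0.376 and 0.498 CPM (-2.79 ± 0.27, adjusted p = 0.00636). In counts, Cyp2b10 had 50 and 57 reads in the wild-type and 7 and 7 in the het-labelled libraries, so its fold change is imprecise. Rnf125, a ubiquitin ligase, stood at 123 and 113 CPM in wild-type and 57.1 and 59.9 CPM in het-labelled libraries (-1.01 ± 0.09, adjusted p = 0.00411). Alas2, the erythroid form of the first enzyme of heme synthesis, stood at 140.2 and 142 against 70.0 and 61.2 CPM (-1.10 ± 0.10, adjusted p = 0.00411). In each of these 5 the 2 libraries of a group lay close together and the groups were far apart. The other two of the 7, Mettl7a3 and the joint row of Mettl7a2, were higher in het-labelled livers and are described with the neighbours of Kmt2d.

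Genes of the lipid droplet fell in the het-labelled livers on HFD. Of 19 tested genes on the list of PPARG and its lipid-droplet targets, 5 were called lower and 0 higher, and 14 had both het-labelled libraries under both wild-type ones, 73.68% of the list against 24.3% of all genes. At an unadjusted p under 0.05, 12 of the 19 were lower (7.93% of all genes) and 1 was higher (5.85%). The list's median log2 difference was -0.71. The called members encode proteins that make, coat or enlarge droplets. Cidec, which lets droplets fuse, had 28.7 and 13.7 CPM in the wild-type and 3.43 and 1.99 CPM in the het-labelled HFD libraries (log2 difference -2.93 ± 0.41, edgeR adjusted p = 0.0317). The wild-type pair was wide, and its lower library was still above both het-labelled ones. Fitm1, which takes part in droplet budding, had 66.2 and 60.0 against 20.01 and 8.96 CPM (-2.10 ± 0.29, adjusted p = 0.0304). Mogat1, a monoacylglycerol acyltransferase, had 5.31 and 2.41 against 0.536 and 0.427 CPM (-2.96 ± 0.47, adjusted p = 0.0443), from 92 and 44 against 10 and 6 reads. The het-labelled libraries were alike in Mogat1 and the wild-type ones were not. The droplet coat genes Plin4 and Plin2 complete the called members. Plin4 had 16.7 and 28.7 CPM in wild-type and 7.51 and 7.40 CPM in het-labelled libraries (-1.60 ± 0.25, adjusted p = 0.0378). Plin2, the most abundant of them, had 762 and 675 against 443 and 406 CPM (-0.76 ± 0.12, adjusted p = 0.0455), the smallest fold of the 5.

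The chow libraries show where these levels stood without the diet. Cidec had 2.52 and 3.48 CPM in wild-type and 1.13 and 2.31 CPM in het-labelled chow libraries, so the het-labelled HFD values were near those of wild-type chow livers. Plin2 was at 474 and 378 CPM in wild-type chow libraries, and the het-labelled HFD values fell between them. Het-labelled chow libraries had 315 and 335 CPM of Plin2. Fitm1 was the 1 gene of the 5 also called on chow, with 29.6 and 36.6 against 10.1 and 8.37 CPM (log2 difference -1.84 ± 0.31, edgeR adjusted p = 0.0482). On chow Plin4 had 10.8 and 9.51 against 3.69 and 4.97 CPM (-1.22 ± 0.28, adjusted p = 0.0960). Mogat1 had 0.693 and 0.464 against 0.283 and 0.204 CPM there, from 11 and 8 against 4 and 3 reads. In each of the 5 both het-labelled chow libraries were under both wild-type ones, so the lower level was not confined to HFD. None of the 5 calls was stable to the choice of libraries. Cidec was lost without library 1, 2, 5 or 8, Fitm1 without 1, 2, 5 or 6, Mogat1 without 1, 2, 5, 7 or 8, Plin4 without 1, 2, 6, 7 or 8 and Plin2 without 1, 2, 5, 6, 7 or 8, with highest adjusted p-values of 0.135, 0.110, 0.186, 0.169 and 0.242 in that order. The list held between 0 and 5 calls when 1 library was left out, 2 with limma-voom and 0 when only the HFD libraries were fitted.

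Members of the list that did not pass included genes with large differences. Cd36, a fatty acid uptake receptor, had 137 and 97.1 CPM in wild-type and 41.7 and 14.4 CPM in het-labelled HFD libraries (log2 difference -2.05 ± 0.39, adjusted p = 0.0653). Cidea, another CIDE-family droplet gene, had 8.37 and 1.203 against 0.215 and 0.0711 CPM, with a wild-type pair that was wide (-4.90 ± 1.22, adjusted p = 0.160). Its het-labelled values were near or under the level of 3 counts, 0.161 CPM in library 7 and 0.213 CPM in library 8. The fold change of Cidea is therefore imprecise. Plin5 had 46.6 and 60.6 against 35.0 and 30.6 CPM (-0.71 ± 0.13, adjusted p = 0.0627). In all 3 the groups were apart. Pparg itself had 16.8 and 12.6 CPM in wild-type and 12.98 and 11.02 CPM in het-labelled HFD libraries, and the groups overlapped (-0.28 ± 0.16, adjusted p = 0.468). Fabp4, a fatty acid carrier, had 6.64 and 7.11 against 4.77 and 5.26 CPM (adjusted p = 0.318). Fitm2 had 29.6 and 20.3 against 21.4 and 16.997 CPM, with overlap. Lpl, lipoprotein lipase, went the other way, at 27.1 and 28.2 against 49.5 and 35.2 CPM (0.62 ± 0.16, adjusted p = 0.149). Markers of fat cells in the tissue were looked at beside these genes, since droplet genes are also fat-cell genes: Adipoq, Retn, Lep and Plin1 were too low to be tested, and 0 of the 3 tested were called (0 with DESeq2; 1 lower and 0 higher at an unadjusted p under 0.05). Cfd, the adipocyte serine protease adipsin, had 20.9 and 12.96 CPM in wild-type and 4.83 and 0.284 CPM in het-labelled libraries (adjusted p = 0.115). Lipe, hormone-sensitive lipase, had 14.8 and 11.5 against 11.1 and 11.02 CPM, and Car3, a carbonic anhydrase that is also abundant in liver, 3849.8 and 4992 against 5696 and 3843 CPM, with overlap. The part of fat cells in the droplet results was not tested. In bulk tissue, fewer cells of a type and less RNA per cell cannot be told apart.

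**Figure D2:**
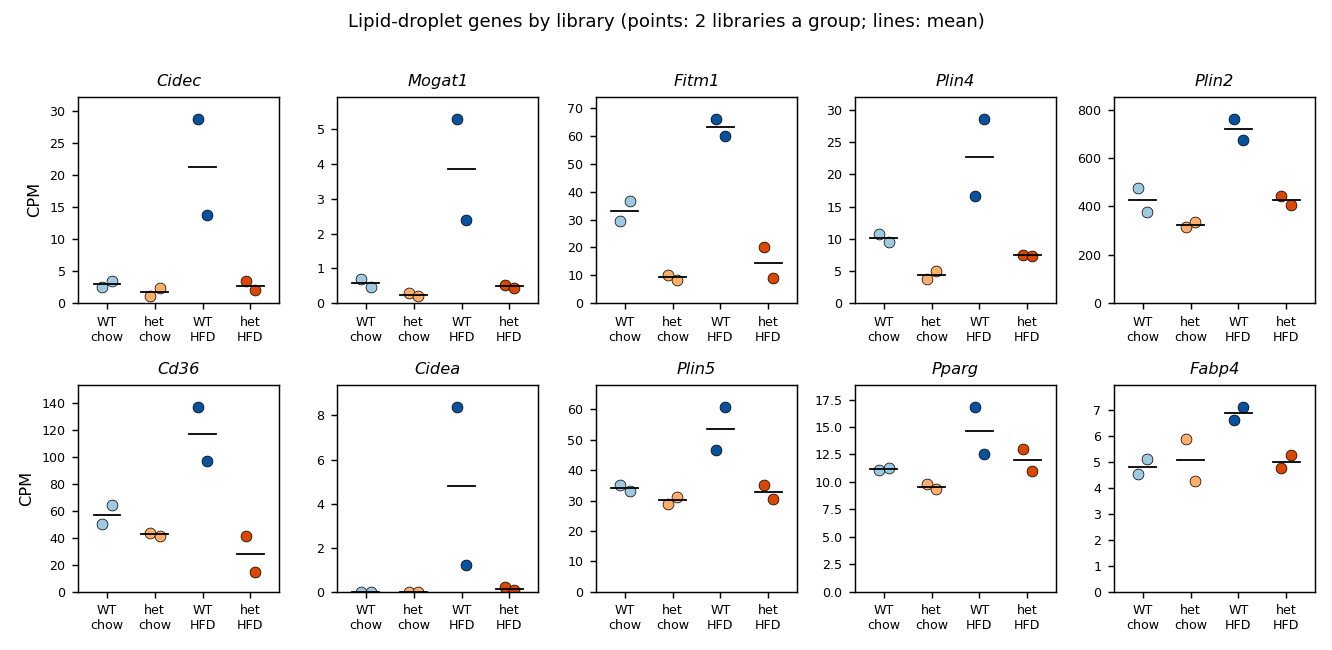
CPM of 10 lipid-droplet genes in each library (1 panel per gene with its own axis from 0; points are libraries, lines are the mean of 2). In Cidec, Mogat1, Fitm1, Plin4, Plin2, Cd36, Cidea, Plin5 and Fabp4 both het-labelled HFD points lie under both wild-type HFD points, and in Pparg the groups overlap.

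The promoters of the called genes were searched for 5 sequence motifs, because genes that move together may share letters near their start. The window runs from 250 bases before to 50 bases after a gene's start in RefSeq (assembly GRCm38.p6), and 40 of the 56 called rows had such an entry; a gene with several starts was counted if any of its windows matched. The E-box CACGTG, read by basic helix-loop-helix factors such as SREBP1, USF and the clock proteins, occurred in 5 of 31 promoters of genes called lower (16.1%), in 1 of 9 of genes called higher (11.1%) and in 11.7% of 9962 promoters of tested genes. The cAMP element TGACGTCA occurred in 2 of the 31, 6.45% against 3.46% of all, and the heat shock element in 1 of the 31, 3.23% against 0.582% of all. The D-box (TTATGTAA or TTACGTAA) and the PPAR element DR1 occurred in 0 of the 40 and in 0.913% and 0.0502% of all promoters. These shares were not tested, and those of the cAMP and heat shock elements rest on 2 promoters and 1. The E-box and the cAMP element read the same on both strands, the 3 remaining motifs were searched on both, and no motif contains another letter for letter. A match gives letters in this window and no evidence of binding, and no match says only that those letters are not in it. To let these windows be seen, 3 promoters with an E-box (in capitals) follow, 5′ to 3′ on the strand of the gene: Plin2 for the droplet genes (chr4:86670010-86670309, minus strand, E-box from base -4, with the start as base 0), Aqp8 (chr7:123462044-123462343, plus strand, from base -75) and Slc16a1 (chr3:104638414-104638713, plus strand, from base -200) for the transporters described further on.
Plin2: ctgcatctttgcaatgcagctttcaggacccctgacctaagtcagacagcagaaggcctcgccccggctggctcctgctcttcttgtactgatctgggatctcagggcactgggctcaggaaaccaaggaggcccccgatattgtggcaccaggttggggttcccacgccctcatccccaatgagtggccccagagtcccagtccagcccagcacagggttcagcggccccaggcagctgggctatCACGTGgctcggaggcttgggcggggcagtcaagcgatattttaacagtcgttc
Aqp8: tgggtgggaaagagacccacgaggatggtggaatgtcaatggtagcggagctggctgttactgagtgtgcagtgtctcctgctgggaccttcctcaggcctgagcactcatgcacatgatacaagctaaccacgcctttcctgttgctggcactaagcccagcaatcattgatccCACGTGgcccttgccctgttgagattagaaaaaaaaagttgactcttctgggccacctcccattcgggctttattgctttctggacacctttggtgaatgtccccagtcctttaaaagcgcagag
Slc16a1: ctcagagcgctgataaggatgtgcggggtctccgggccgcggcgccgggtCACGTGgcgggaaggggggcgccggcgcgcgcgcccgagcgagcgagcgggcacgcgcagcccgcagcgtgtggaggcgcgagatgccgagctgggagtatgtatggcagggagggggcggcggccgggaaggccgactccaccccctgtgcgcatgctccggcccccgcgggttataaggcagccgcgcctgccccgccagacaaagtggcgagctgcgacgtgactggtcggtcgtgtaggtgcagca

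Most genes of fatty acid oxidation were lower in level in the het-labelled livers, while 1 passed the test. On the list of fatty acid oxidation and PPARA targets, 1 of 38 tested genes was called lower and 0 higher. Both het-labelled libraries were under both wild-type ones in 31 of the 38 (81.58%, against 24.3% of all genes) and over them in 0. The list's median log2 difference was -0.36, and 20 of the 38 were lower at an unadjusted p under 0.05 (7.93% of all genes). With het-labelled library 7 alone set against the wild-type pair, 32 of 38 were lower (36.2% of all genes), and with library 8 alone 37 were (40.6% of all genes). The called gene was Ehhadh, the bifunctional enzyme of peroxisomal oxidation, with 431 and 469 CPM in wild-type and 310.2 and 293 CPM in het-labelled HFD libraries (log2 difference -0.58 ± 0.094, edgeR adjusted p = 0.0473). That call was lost without library 1, 2, 5, 6, 7 or 8 (adjusted p up to 0.218). Acadm, the medium-chain acyl-CoA dehydrogenase of mitochondria, had 364 and 349 against 260.3 and 262 CPM (-0.45 ± 0.082, adjusted p = 0.0575). It did not pass, although both pairs were tight and apart. The fatty acid hydroxylases Cyp4a10 and Cyp4a14, which PPARA drives, differed most on this list in fold. Cyp4a10 had 422 and 328 against 127 and 107 CPM (adjusted p = 0.0796), and Cyp4a14 had 263 and 197 against 36.2 and 47.4 CPM (adjusted p = 0.117). On chow the same genes ranged widely within the het-labelled pair, with 149 and 724 CPM for Cyp4a14. Reads of these near-identical Cyp4a copies may be split between them. Ppara itself had 372 and 253 against 351 and 242 CPM and Fgf21, its secreted target, 1.67 and 1.15 against 1.56 and 1.07 CPM, both with overlap.

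Fat synthesis gave 1 call. Gpd1, which makes glycerol 3-phosphate for triglycerides from a glycolytic intermediate, had 739.7 and 736 CPM in wild-type and 421 and 314 CPM in het-labelled HFD libraries (log2 difference -1.01 ± 0.13, edgeR adjusted p = 0.0278), and was the only one of 12 tested genes of triglyceride synthesis to be called. It was lost without library 1, 2, 5, 6 or 8 (adjusted p up to 0.103). Lpin2, a phosphatidate phosphatase, had 309 and 283 against 172 and 162 CPM (adjusted p = 0.109) and Gpam, the first acyltransferase of the pathway, 398 and 234 against 186 and 150.3 CPM (adjusted p = 0.255). Both were apart between groups and did not pass. The terminal enzyme Dgat2 had 445 and 461 against 476 and 400.1 CPM, with overlap. Of 25 tested genes of de novo lipogenesis 0 were called (4 lower with DESeq2). At an unadjusted p under 0.05, 7 were lower (7.93% of all genes) and 0 higher. In 12 of the 25 both het-labelled libraries were under both wild-type ones, 48.0% against 24.3% of all genes. Fasn, fatty acid synthase, had 1508 and 1555 against 1184 and 761 CPM (adjusted p = 0.353) and Elovl5, a fatty acid elongase, 1258 and 938 against 583 and 679 CPM (adjusted p = 0.141). Scd1, the delta-9 desaturase and by far the most abundant of the list, had 33392 and 25196 against 21776 and 20212 CPM (-0.48 ± 0.35, adjusted p = 0.600). Srebf1, the gene of the regulator SREBP1, had 550.2 and 881 against 909 and 562 CPM, with the higher and the lower level in each pair about equal. Apoc2, which activates lipoprotein lipase, was the called member of 17 lipoprotein genes, with 268 and 251 against 174 and 157 CPM (-0.65 ± 0.092, adjusted p = 0.0319; lost without library 1, 2, 5, 6 or 8, adjusted p up to 0.173). On cholesterol synthesis, 0 of 25 genes were called (1 lower with DESeq2) and 3 were lower at an unadjusted p under 0.05. On that list 16 of 25 were under both wild-type libraries with library 7 alone (36.2% of all genes) and 5 with library 8 alone (40.6% of all genes).

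Bile acid synthesis and drug metabolism held calls in both directions. Cyp7a1, which catalyses the slow first step from cholesterol to bile acids, rose from 29.8 and 25.3 CPM in wild-type to 112 and 71.7 CPM in het-labelled HFD libraries (log2 difference 1.74 ± 0.20, edgeR adjusted p = 0.0208). Both het-labelled values were also above all 4 chow libraries, which held 48.8 and 57.6 CPM in wild-type and 63.6 and 56.7 CPM in het-labelled livers. The call was lost without library 5 or 6 (adjusted p up to 0.0759). It was the only call among 23 tested genes of bile acid synthesis and transport. Cyp7b1, of the alternative pathway, had 123 and 147 against 195 and 239.9 CPM (adjusted p = 0.167), and Cyp8b1, which sets the share of cholic acid, had 409.9 and 340.1 against 223 and 201 CPM (adjusted p = 0.244). Both pairs were apart, in opposite directions. The canalicular export pump gene Abcb11 and the uptake carrier gene Slc10a1 overlapped, at 684 and 704 against 658 and 728 CPM and 595 and 559 against 581 and 617 CPM. On the list of phase II conjugation 1 of 25 tested genes was called higher and 0 lower. Both het-labelled libraries were lower in 13 (52.0%, against 24.3% of all genes) and higher in 6 (24.0%, against 22.8%). The median log2 difference was -0.22. At an unadjusted p under 0.05, 10 were lower (7.93% of all genes) and 3 higher (5.85%). Sult1a1, a sulfotransferase, had 153 and 123 against 92.9 and 73.0 CPM (adjusted p = 0.175). The called member was Gstp1, a glutathione transferase gene, and its near copy Gstp2, outside the list, was called higher too. Gstp1 had 610.3 and 736 CPM in wild-type and 1067 and 1235 CPM in het-labelled libraries (0.77 ± 0.13, adjusted p = 0.0473), and Gstp2 had 250.5 and 290.0 against 429 and 512 CPM (0.80 ± 0.12, adjusted p = 0.0337). On chow Gstp1 stood higher in both genotypes, at 1580.3 and 1587 CPM in wild-type and 1791 and 1525 CPM in het-labelled livers. As near-identical copies their reads may be split, so they are not 2 independent results, and each was lost without library 1, 2, 5, 6 or 8 (adjusted p up to 0.252 and 0.197). Of 25 tested genes of CAR, PXR and other P450 genes, Cyp2b10 alone was called. Cyp2c29 and Cyp3a11, abundant P450 genes that the same receptors drive, overlapped, at 1291 and 1525 against 1511 and 1315 CPM and 1490.1 and 1877 against 1838 and 818 CPM.

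Carriers and channels were a further group of calls, most of them lower. Of 27 tested genes on the list of amino acid and organic solute transporters, 3 were called lower (0.349% of all genes) and 0 higher. They were Aqp4, described above, Slc16a1 and Aqp8, as the list includes water channels. In 8 of the 27 both het-labelled libraries were under both wild-type ones (29.63%, against 24.3% of all genes). In 5 they were over them (18.52%, against 22.8%). The median log2 difference was -0.07, so the list as a whole stood near all genes. Slc16a1, the monocarboxylate carrier MCT1, had 61.6 and 60.9 CPM in wild-type and 37.6 and 37.9 CPM in het-labelled HFD libraries (log2 difference -0.70 ± 0.088, edgeR adjusted p = 0.0244), and the values within each pair were almost equal. Aqp8, another water channel, had 223 and 185 against 66.1 and 83.6 CPM (-1.45 ± 0.23, adjusted p = 0.0459). Outside the lists, Slc23a1, a vitamin C carrier, had 84.5 and 68.3 against 40.1 and 39.3 CPM (-0.94 ± 0.14, adjusted p = 0.0375). Mfsd2a, which carries lysophospholipids with long-chain fatty acids and was the only call on the list of 14 tested genes of phospholipid synthesis, had 130.4 and 141 against 81.2 and 86.0 CPM (-0.70 ± 0.11, adjusted p = 0.0378). On chow Mfsd2a stood far lower in level and was also lower in het-labelled livers, with 12.5 and 13.7 against 5.74 and 7.35 CPM (adjusted p = 0.0351). Slc39a4 was the only call of 8 tested zinc transporters and metallothioneins, and its level on chow was higher in both genotypes, at 64.1 and 57.4 CPM in wild-type and 36.1 and 28.8 CPM in het-labelled livers (adjusted p = 0.0407). The calls of Slc16a1, Slc23a1, Mfsd2a and Aqp8 were lost without library 1, 2, 5, 6 or 8 (Slc16a1), 1, 2, 5, 6, 7 or 8 (both Slc23a1 and Mfsd2a) and 5, 6, 7 or 8 (Aqp8), with adjusted p up to 0.117, 0.185, 0.170 and 0.227.

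Single members of the lists of amino acid breakdown, zonation and glycogen were called lower. Oat, ornithine aminotransferase, a pericentral hepatocyte enzyme, had 947 and 771 CPM in wild-type and 461 and 398 CPM in het-labelled HFD libraries (log2 difference -0.9999 ± 0.12, edgeR adjusted p = 0.0222). Aldh1b1, a mitochondrial aldehyde dehydrogenase, had 36.7 and 34.1 against 23.2 and 20.1 CPM (-0.71 ± 0.10, adjusted p = 0.0304). These were the 2 calls on the zonation list of 20 tested genes, and Oat was also the only call on the list of 28 genes of the urea cycle and amino acid breakdown. Ppp1r3g, a subunit that brings protein phosphatase 1 to glycogen and the only call on the list of 16 tested genes of gluconeogenesis and glycogen, had 10.2 and 20.7 against 2.52 and 3.06 CPM (-2.48 ± 0.35, adjusted p = 0.0319). The het-labelled HFD values of Ppp1r3g were near those of chow livers, which had 3.15 and 2.203 CPM in wild-type and 2.91 and 2.04 CPM in het-labelled livers, and the wild-type HFD pair was wide. The calls of Oat, Aldh1b1 and Ppp1r3g were lost without library 1, 2, 5 or 8 (Oat), 1, 2, 5, 6 or 8 (Aldh1b1) and 1, 2, 6, 7 or 8 (Ppp1r3g; adjusted p up to 0.103, 0.150 and 0.128).

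Further calls were single genes, set together here by what they encode after their values were seen; most fell. Lgals1, galectin-1, had 30.7 and 22.7 CPM in wild-type and 5.79 and 2.06 CPM in het-labelled HFD libraries (log2 difference -2.71 ± 0.38, edgeR adjusted p = 0.0304). Anxa2, a membrane-binding annexin, had 25.97 and 19.6 against 9.98 and 6.68 CPM (-1.44 ± 0.21, adjusted p = 0.0319), and Tpm2, a tropomyosin, 12.8 and 11.9 against 4.94 and 2.99 CPM (-1.62 ± 0.23, adjusted p = 0.0317). Wild-type chow livers had 10.02 and 13.1 CPM of Lgals1, 8.63 and 9.33 CPM of Anxa2 and 3.97 and 3.71 CPM of Tpm2. The het-labelled HFD values were near these in Anxa2 and Tpm2 and under them in Lgals1. Het-labelled chow livers had 5.24 and 3.06 CPM of Lgals1, 8.86 and 7.28 CPM of Anxa2 and 2.13 and 1.43 CPM of Tpm2. On chow the genotypes thus overlapped in Anxa2, and het-labelled livers were lower in Lgals1 and Tpm2 without a call (edgeR adjusted p = 0.135 and 0.127). The beta-tubulin genes Tubb2a and Tubb2b fell in parallel. Tubb2a had 216 and 234 against 98.2 and 73.3 CPM (-1.39 ± 0.19, adjusted p = 0.0304), and Tubb2b had 47.9 and 51.2 against 22.6 and 17.8 CPM (-1.29 ± 0.16, adjusted p = 0.0244); as close copies they may share reads. Cdkn1a, the cell cycle inhibitor p21, had 11.1 and 19.2 against 3.86 and 2.92 CPM (-2.15 ± 0.27, adjusted p = 0.0244) and was the only call on the list of 14 tested p53 targets. Of the matrix genes, Col15a1 had 8.25 and 8.58 against 2.41 and 2.99 CPM (-1.65 ± 0.22, adjusted p = 0.0304) and Spon2 19.04 and 14.98 against 3.76 and 6.97 CPM (-1.69 ± 0.26, adjusted p = 0.0423), while Col27a1 rose, with 63.7 and 76.3 against 115 and 111 CPM (0.69 ± 0.10, adjusted p = 0.0331). Of 25 listed genes of collagens and matrix, 0 were called (0 with DESeq2; 1 lower and 1 higher at an unadjusted p under 0.05). Markers of stellate cells and fibroblasts, which make matrix, summed to 223 and 208 CPM in wild-type and 212 and 186 CPM in het-labelled HFD libraries, and 0 of 15 were called (0 with DESeq2; 0 lower and 1 higher at an unadjusted p under 0.05). Each of these 9 calls was lost without 3 or more of the 8 libraries, library 8 among them for all but Spon2, with adjusted p up to 0.119 for Lgals1, 0.136 for Anxa2, 0.136 for Tpm2, 0.128 for Tubb2a, 0.103 for Tubb2b, 0.117 for Cdkn1a, 0.108 for Col15a1, 0.212 for Spon2 and 0.155 for Col27a1.

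Red cell genes were lower in the het-labelled livers on HFD. The joint row of the beta-globin genes Hbb-b1 and Hbb-b2 (Hbb-b1+Hbb-b2) had 205 and 153 CPM in wild-type and 76.9 and 86.2 CPM in het-labelled HFD libraries (log2 difference -1.13 ± 0.18, edgeR adjusted p = 0.0459), and the alpha-globin row Hba-a1+Hba-a2 had 483 and 359 against 203 and 223 CPM (-0.98 ± 0.19, adjusted p = 0.0680). The summed level of the matched erythroid markers was 1144 and 889 CPM in wild-type and 468 and 499.7 CPM in het-labelled HFD libraries, against 408, 316, 316 and 342 CPM in chow libraries 1 to 4. Of the 5 tested, 2 were called lower, and all 5 had both het-labelled libraries under both wild-type ones (24.3% of all genes). The wild-type HFD libraries therefore stood above the 6 others in the summed level. Globin RNA can come from blood in a piece of liver, and the part of blood in these or other results was not tested. On chow the globin rows were not lower in het-labelled livers (log2 difference 0.16 for Hbb-b1+Hbb-b2 and 0.036 for Hba-a1+Hba-a2). Alas2, the second call, stood at 119 and 119.6 CPM in wild-type and 72.1 and 63.8 CPM in het-labelled chow livers, a lower level in het-labelled livers on both diets (chow adjusted p = 0.0262). The beta-globin row was lost without library 1, 2, 5, 6, 7 or 8 (adjusted p up to 0.230).

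Several of the largest falls were of genes expressed at low levels in liver. Hr, a nuclear receptor corepressor known from hair growth, had 4.44 and 2.90 CPM in wild-type and 0.376 and 0.427 CPM in het-labelled HFD libraries, from 77 and 53 against 7 and 6 reads (log2 difference -3.18 ± 0.38, edgeR adjusted p = 0.0222). Dct, an enzyme of melanin synthesis, had 3.64 and 2.08 against 0.215 and 0.498 CPM, from 63 and 38 against 4 and 7 reads (-3.04 ± 0.49, adjusted p = 0.0467). Smpd3, a neutral sphingomyelinase, had 10.1 and 8.47 against 2.04 and 1.07 CPM (-2.53 ± 0.33, adjusted p = 0.0269), and Stap1, a signalling adaptor, 4.15 and 3.61 against 1.23 and 0.711 CPM (-1.95 ± 0.29, adjusted p = 0.0354). All 4 had groups far apart. Adora1, an adenosine receptor, was called lower on both diets: it had 20.9 and 19.96 against 8.37 and 5.05 CPM on HFD (-1.58 ± 0.20, adjusted p = 0.0244) and 19.2 and 21.97 against 7.51 and 6.53 CPM on chow (-1.55 ± 0.20, adjusted p = 0.0322). Avpr1a, a vasopressin receptor of hepatocytes, rose from 15.99 and 18.2 to 34.3 and 50.5 CPM (1.31 ± 0.21, adjusted p = 0.0454), and Notum, a secreted inhibitor of Wnt proteins, from 21.99 and 25.6 to 41.4 and 39.3 CPM (0.76 ± 0.11, adjusted p = 0.0354). The 5 remaining calls that rose, Sall2, Fam46a, Pdilt, Abca8a and the Mettl7a2 row, had log2 differences of 0.75 to 1.44. The 10 remaining calls that fell, Fam129b, Cml5, Zap70, Tceal8, 5033406O09Rik, Acss3, Arsg, Mgmt, Ugt3a1 and 1300010F03Rik, had log2 differences from -2.06 to -0.55. The calls of Hr, Dct, Smpd3, Stap1, Adora1, Avpr1a and Notum were lost without library 1, 2, 5 or 8 (Hr), 1, 2, 5, 6, 7 or 8 (Dct), 5, 6 or 8 (Smpd3), 1, 2, 5, 6 or 8 (Stap1), 1, 2, 5 or 6 (Adora1), 1, 2, 5, 6 or 8 (Avpr1a) and 1, 2, 5, 6, 7 or 8 (Notum), with adjusted p up to 0.103, 0.185, 0.108, 0.201, 0.0920, 0.260 and 0.215.

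The genotype comparison on chow contrasts the 4 chow libraries. Its fold changes come from those alone, while its p-values share the estimate of the spread with the HFD libraries. On chow 65 genes were called (0.516% of those tested), 64 when the chow libraries were fitted alone, and 15, 4, 130 and 133 without HFD library 5, 6, 7 and 8 in turn. Of the 56 genes called on HFD, 52 had the same sign on chow, against 61.53% of all tested genes. The calls shared by both diets were 11, which is 19.64% of the HFD calls and 16.92% of the chow calls, and all 11 had the same sign. At an unadjusted p under 0.05 on chow, which 15.3% of all genes reached, 34 of the 56 were found, again all with the same sign. The shared estimate of the spread favours small p-values on both diets in the same genes, so these counts are not independent. Aqp4 was lower on chow by a similar amount, with 2.84 and 3.71 against 0.425 and 0.612 CPM (log2 difference -2.64 ± 0.28, edgeR adjusted p = 0.0222), although its wild-type level was well below that on HFD. Rnf125 had 153 and 164 against 106 and 114 CPM on chow (adjusted p = 0.0482). In size, the difference was larger on HFD than on chow in 55 of the 56, but these genes were selected by their HFD difference, which by itself favours that order.

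Whether the genotype difference itself changed with the diet was tested by the interaction. It called 0 genes with edgeR (0.0%) and 0 with limma-voom, while 900 genes, 7.15%, had an unadjusted p under 0.05 in edgeR, and DESeq2 called 25. No gene is therefore shown by the test used here to differ between genotypes on HFD in another way than on chow. Of the 56 genes called on HFD, 30 were among the 900. The HFD difference that selected them is also part of the interaction, which by itself favours small p-values there. The smallest p-values belonged to Cyp2b10 and Slc39a4. Cyp2b10 had 22.996 and 23.7 CPM in wild-type and 25.1 and 20.1 CPM in het-labelled chow livers, so the groups overlapped on chow and were apart on HFD (interaction log2 -2.74 ± 0.31, edgeR adjusted p = 0.0963). Slc39a4 was lower in het-labelled livers on both diets, at the levels given above (interaction log2 -1.89 ± 0.22, adjusted p = 0.0963). The next 3 genes owed their place to chow. Kdm2b, a histone demethylase, had 8.001 and 8.29 against 21.7 and 18.6 CPM on chow and 8.48 and 8.37 against 8.74 and 8.25 CPM on HFD (interaction adjusted p = 0.170). Tob2, an antiproliferative factor, had 48.8 and 48.8 against 23.2 and 27.4 CPM on chow and 43.7 and 52.0 against 55.2 and 55.5 CPM on HFD (adjusted p = 0.170). The myeloid receptor gene Cd300ld had 3.97 and 3.42 against 10.5 and 9.12 CPM on chow and 3.64 and 4.21 against 3.17 and 2.84 CPM on HFD (adjusted p = 0.186).

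**Figure D3:**
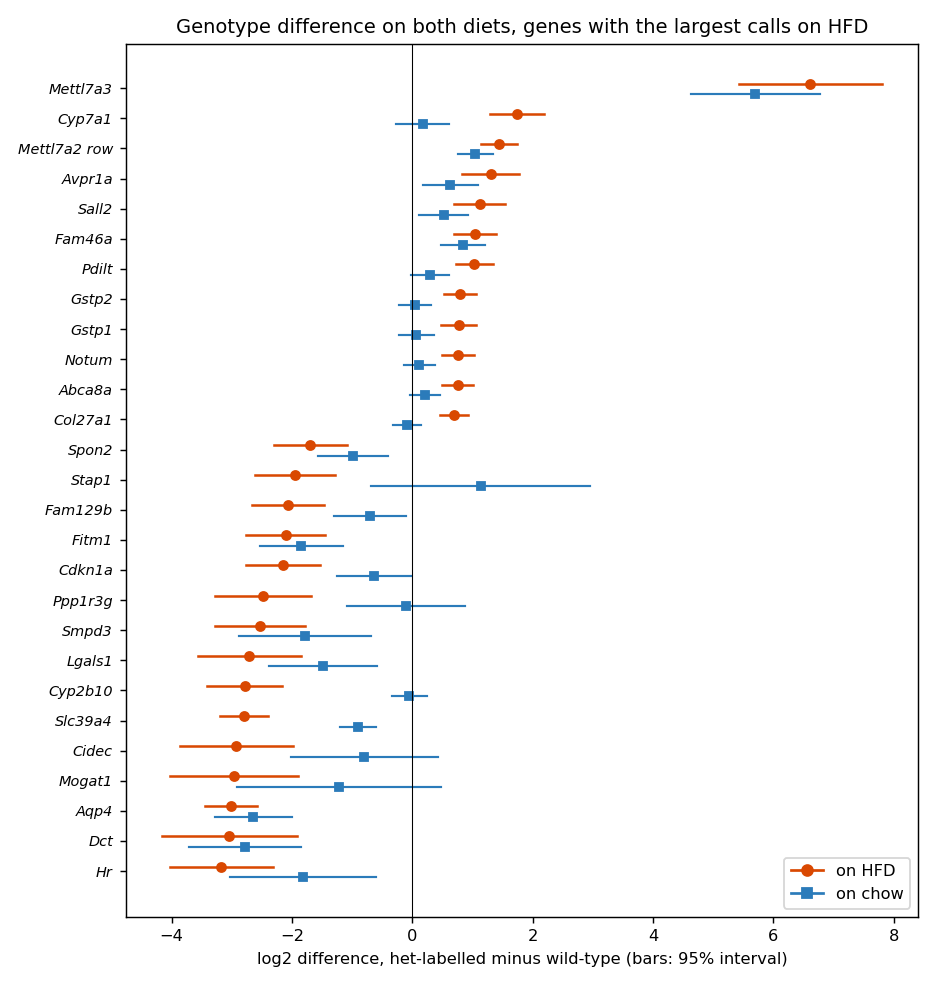
Log2 difference of het-labelled minus wild-type livers (horizontal axis, bars are 95% intervals) on HFD (orange circles) and on chow (blue squares) for the genes with the largest called rises and falls on HFD. Aqp4, Dct, Fitm1 and Mettl7a3 lie at similar places on both diets, whereas Cyp7a1, Cyp2b10 and Ppp1r3g have intervals on chow that include 0.

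Genes next to Kmt2d on its chromosome were examined because a marked or engineered locus can carry linked sequence with it. Among the 25 tested genes on each side of Kmt2d on chromosome 15, 3 of 50 were called on HFD, against 0.445% of all genes, and all 3 lay on 1 side. Mettl7a3, a methyltransferase-like gene 24 tested genes away, had 1 and 2 reads in the wild-type and 176 and 120 in the het-labelled HFD libraries, or 0.0577 and 0.109 against 9.44 and 8.53 CPM (edgeR adjusted p = 0.00275). From 3 reads in the wild-type pair and 296 in the het-labelled pair, the ratio at equal depth was 107 (95% exact binomial interval 36.3 to 522, which covers counting error only). On chow the same gene had 0.378 and 0 against 9.92 and 9.73 CPM (adjusted p = 0.00793). The next row in order, in which Mettl7a2, Higd1c and AB099516 are counted jointly (Mettl7a2+Higd1c+AB099516), had 8.77 and 7.49 against 23.6 and 20.6 CPM on HFD (log2 difference 1.44 ± 0.13, adjusted p = 0.00466) and 12.4 and 11.4 against 23.3 and 25.9 CPM on chow (adjusted p = 0.0262). In both the groups were far apart on both diets. Mettl7a1, 23 genes from Kmt2d and a close relative of these, had 239.9 and 248 against 254 and 235 CPM (log2 difference 0.0025 ± 0.083, adjusted p = 0.996), and the groups overlapped. As near-identical copies the Mettl7a genes may trade reads. Gpd1, described above, lay 16 tested genes from Kmt2d, beside Smarcd1, a chromatin remodelling subunit at 15, which had 12.3 and 15.6 against 7.51 and 5.05 CPM and did not pass (-1.14 ± 0.19, adjusted p = 0.0512). On the whole chromosome 6 of 495 tested genes were called, and called rows lay on 20 chromosomes. The part of linked sequence in these differences was not tested.

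**Figure D4:**
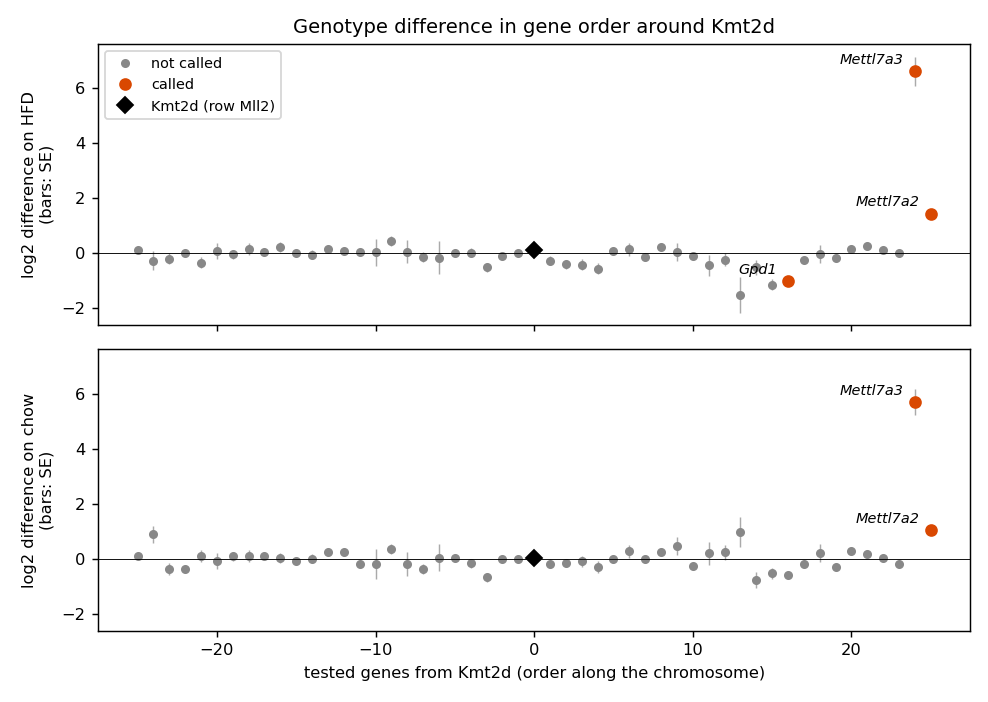
Log2 difference of het-labelled minus wild-type livers (bars are SE) for the 25 tested genes on each side of Kmt2d, in their order along the chromosome, on HFD (top) and chow (bottom). Orange points are called genes: Mettl7a3 and the Mettl7a2 row on both diets and Gpd1 on HFD; the diamond is Kmt2d at 0.11 on HFD.

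Het-labelled library 8 stood apart from its partner in genes of the early stress response. Fos, an immediate early gene, had 1.62 and 1.26 CPM in wild-type and 12.02 and 80.4 CPM in het-labelled HFD libraries (log2 difference 4.99 ± 0.93, edgeR adjusted p = 0.0609), and Egr1 had 5.83 and 5.91 against 14.6 and 418 CPM (5.20 ± 1.30, adjusted p = 0.134). The inducible chaperone gene Hspa1b had 12.6 and 9.40 against 36.3 and 188 CPM (3.35 ± 0.63, adjusted p = 0.0637) and its cofactor gene Dnajb1 21.99 and 19.96 against 35.8 and 169 CPM (adjusted p = 0.122). Library 8 was the higher in each, and library 7 was still above both wild-type libraries. Of 23 tested heat shock genes 0 were called (4 higher with DESeq2; 12 higher and 0 lower at an unadjusted p under 0.05). Both het-labelled libraries were over both wild-type ones in 19 of the 23, against 22.8% of all genes, and the median log2 difference was 0.33. With library 7 alone the count was 19 again, against 37.5% of all genes. Of 23 immediate early genes 0 were called as well (4 higher with DESeq2). At an unadjusted p under 0.05, 7 were higher (5.85% of all genes) and 0 lower. In 9 both het-labelled libraries were higher, 39.13% against 22.8% of all genes. With library 7 alone, 11 of these 23 were over both wild-type libraries (37.5% of all genes) and 6 under them (36.2%). With library 8 alone, 19 were over (37.5% of all genes) and 2 under (40.6%), so the rise of this list lay mostly in library 8. Another set of genes was high in library 8 alone. Cish and Socs2, feedback inhibitors that growth hormone induces through STAT5, had 6.17 and 4.87 against 1.45 and 76.2 CPM and 1.56 and 0.820 against 1.61 and 23.5 CPM. Onecut1, a hepatocyte transcription factor gene that growth hormone also raises, had 3.06 and 2.24 against 2.95 and 66.7 CPM. In these 3, library 7 was near or below the wild-type pair (adjusted p = 0.358, 0.313 and 0.213). Without library 8 the comparison called 15 genes, 5 higher and 10 lower, and without library 7 it called 177, 75 higher and 102 lower.

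**Figure D5:**
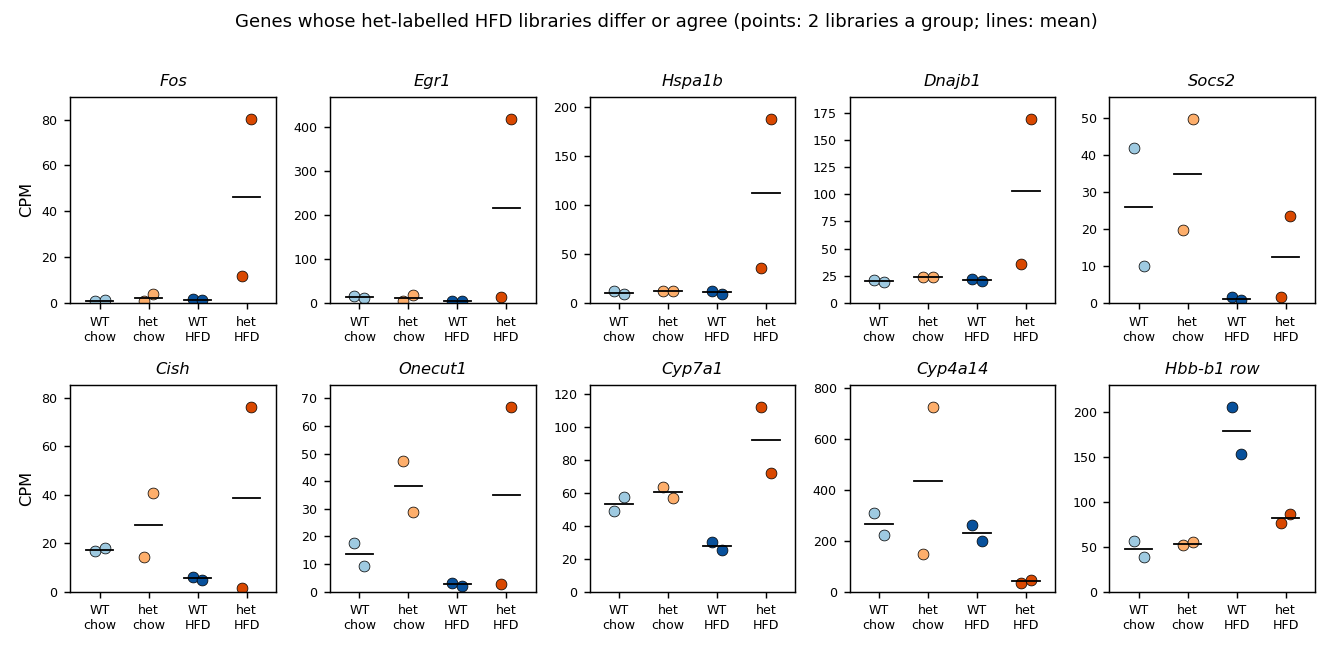
CPM of 10 genes in each library (1 panel per gene with its own axis from 0; points are libraries, lines are the mean of 2). Fos, Egr1, Hspa1b, Dnajb1, Socs2, Cish and Onecut1 are highest among the HFD libraries in het-labelled library 8, while in Cyp7a1, Cyp4a14 and the Hbb-b1 row both het-labelled HFD libraries lie on the same side of the wild-type HFD pair.

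Markers of other liver cells gave no call apart from the red cell genes. Kupffer cell markers, of resident macrophages, summed to 258 and 267 CPM in wild-type and 414 and 295 CPM in het-labelled HFD libraries, and 0 of 14 were called (1 higher with DESeq2; 4 higher and 0 lower at an unadjusted p under 0.05). All 14 had a positive log2 difference, with a median of 0.49. In 6 both het-labelled libraries were over both wild-type ones, 42.86% against 22.8% of all genes. Clec4f, specific to these cells, had 49.5 and 50.2 against 74.9 and 50.3 CPM on HFD (adjusted p = 0.426). On chow the gap was wider, with 53.6 and 47.6 against 123 and 109.6 CPM (1.204 ± 0.17, edgeR adjusted p = 0.0407), and 5 of the 14 were called higher. Endothelial markers summed to 292 and 284 CPM in wild-type and 324 and 261 CPM in het-labelled HFD libraries, with 0 of 16 called (0 with DESeq2; 0 at an unadjusted p under 0.05). Cholangiocyte markers summed to 84.1 and 78.1 against 71.7 and 69.3 CPM, with 0 of 8 called (0 with DESeq2; 1 lower at an unadjusted p under 0.05). Markers of T, NK and B cells and of neutrophils summed to under 10 CPM in each HFD library, wild-type and het-labelled.

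Several other lists held 0 calls. The growth hormone and IGF axis had 0 of 9 called (0 with DESeq2; 5 higher and 1 lower at an unadjusted p under 0.05), and its median log2 difference was 0.51. It includes Cish, Socs2 and Onecut1, which were high in library 8 alone. Bcl6, a transcriptional repressor on the same list, was high in library 7 instead, with 25.3 and 15.3 against 70.1 and 23.1 CPM (adjusted p = 0.350). Of 11 imprinted genes 0 were called (1 higher with DESeq2; 2 higher and 0 lower at an unadjusted p under 0.05), with a median of 0.51, and Peg3 had 4.33 and 4.92 against 7.67 and 12.6 CPM (adjusted p = 0.115). Of 25 genes of the cell cycle and DNA replication 0 were called (0 with DESeq2), with a median of -0.45. At an unadjusted p under 0.05, 5 were lower (7.93% of all genes) and 0 higher. Both het-labelled libraries were lower in 10, 40.0% against 24.3% of all genes. The replicative helicase gene Mcm3 had 5.94 and 5.30 against 3.65 and 2.42 CPM (adjusted p = 0.150). Of 13 genes of retinoid metabolism 0 were called (2 lower with DESeq2; 4 lower and 0 higher at an unadjusted p under 0.05), with a median of -0.38. Rdh16, a retinol dehydrogenase, had 161 and 118 against 70.9 and 55.3 CPM (-1.14 ± 0.19, adjusted p = 0.0509), and Cyp26b1, which breaks down retinoic acid, had 14.4 and 9.57 against 2.84 and 0.853 CPM (adjusted p = 0.0737). Both were apart between groups and did not pass.

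Further lists had medians nearer 0. Of 40 cytosolic ribosomal protein genes 0 were called (0 with DESeq2). At an unadjusted p under 0.05, 6 were higher (5.85% of all genes) and 0 lower. Yet 29 had both het-labelled libraries over both wild-type ones, 72.5% against 22.8% of all genes. The differences were small, with a median of 0.17: Rplp0, of the ribosomal stalk, had 272 and 285 against 300.4 and 317 CPM. Nuclear genes of oxidative phosphorylation went the other way by less, with a median of -0.081. Of these, 19 of 36 were lower in both libraries (52.78%, against 24.3% of all genes). None was called (0 with DESeq2), and 2 were lower at an unadjusted p under 0.05 (7.93% of all genes). Among 23 core clock and clock output genes 0 were called (1 lower with DESeq2; 3 lower and 3 higher at an unadjusted p under 0.05). The clock gene Arntl had 17.2 and 26.7 against 10.5 and 17.2 CPM and Per2 26.2 and 29.6 against 37.8 and 28.02 CPM, both with overlap between genotypes. Of 26 acute phase genes 0 were called (1 lower and 1 higher with DESeq2; 3 lower and 4 higher at an unadjusted p under 0.05), and Saa1 had 33.0 and 24.7 against 26.8 and 20.4 CPM. Among 16 genes of insulin signalling 0 were called (1 lower with DESeq2; 1 lower and 3 higher at an unadjusted p under 0.05), with a median of -0.01.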

How the data were processed

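Liver RNA-seq was measured in 8 libraries, 2 for each of 4 groups of genotype and diet taken from the titles. The authors deposited raw read counts per gene, whole numbers that are not normalized per the file headers and values, in 22946 rows named by symbol. The tools DESeq, HTSeq, TopHat2 and CASAVA and the build mm9 are named per the submitters' processing notes; versions, settings and strand handling: not given in the sources used here. TruSeq libraries were made from RNeasy-purified total RNA, per the labels' protocols. In 374 rows several symbols are joined, and 5826 rows had 0 counts throughout. Overlapping and antisense genes may share reads, and near-identical copies may share reads.

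Rows were kept by filterByExpr of edgeR 4.0.16 (R 4.3.3), which left 12593. Libraries were scaled by TMM, and all 8 entered 1 quasi-likelihood fit with a mean per group (4 residual and 4.77 prior degrees of freedom, common coefficient of variation 11.2%). Tests were 2-sided, with Benjamini-Hochberg adjustment over all tested rows and calls at an adjusted p under 0.05. SEs and 95% intervals were calculated back from the test statistic. Alternatives used other scalings and filters, DESeq2 1.42.0, limma-voom (limma 3.58.1), the libraries of 1 diet only, counts without the joint Mup row, urinary proteins (7.42% to 13.6% of a library) and leaving out each library. On simulated counts of 12593 genes the comparison on HFD recovered 76% of 100 genes changed 2-fold and 98% of 100 changed 4-fold. It also called 21 unchanged genes, beside 76 and 98 recovered ones. The changed genes all had a mean of at least 1 CPM, and no simulated library was made to stand apart as library 8 does. These rates may therefore not hold for the real libraries.

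The text names part of the called genes that rose or fell most (15 each way, mean of at least 1 CPM, groups apart), up to 4 called members of each list or up to 3 abundant ones, a fixed panel and the 5 smallest interaction p-values. List members named without a call beside those, Mettl7a1, Smarcd1, the genes of library 8 and the other called genes were added after their values were seen. The comparison and the lists were chosen with earlier results of these data known. Gene order and promoters came from RefSeq tables of GRCm38.p6, another build than that of the counts, used for names, order and sequence only; 12505 tested rows were matched. Some single-gene values are not reported here.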

Additional observations from a re-analysis of the deposited data

How the results depend on the processing

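The comparison on HFD called 56 genes, 12 higher and 44 lower. It called 92 (18 and 74) with total counts as the only scaling, 258 (73 and 185) without a filter on low counts, 228 (63 and 165) with DESeq2 and 26 (4 and 22) from the HFD libraries alone. The DESeq2 size factors gave 65, the upper quartile 49, limma-voom 46, and the 1 CPM filter and leaving out the urinary protein row 56 each. Leaving out 1 library gave 12 to 177 calls, 2 to 75 higher and 8 to 102 lower: 12 without library 1 or 2, 100 without 3, 99 without 4, 13 without 5, 18 without 6, 177 without 7 and 15 without 8. The comparison on chow called 65 genes, 314 without a filter, 221 with DESeq2, 24 with limma-voom and 1 to 268 with a library left out. The interaction called 0 genes, 8 without a filter, 25 with DESeq2 and 0 to 14 with a library left out. Among neighbours of Kmt2d the count was 2 to 4 throughout. Among the named genes followed through the alternatives, signs turned only in Mll2, Paxip1 and Srebf1. With a library left out the log2 difference of Mll2 ran from -0.027 (without library 8) to 0.24. That of Paxip1 ran from -0.12 (without 7) to 0.11, and that of Srebf1 more widely, from -0.35 (without 7) to 0.42. Paxip1 was also -0.00483 with total counts and -0.0022 without a filter. The cause of these shifts was not tested. Leaving out a library also leaves fewer degrees of freedom, and its part was not tested either. Of the 56 calls, 17 remained under the 9 alternatives that keep all libraries or the HFD libraries, and 7 under all 17. No paired analysis was possible because the groups compared share no library numbers. At 3 counts a gene stood at 0.161 to 0.213 CPM, and lower levels could not be told from 0.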
